A study of Homo sapiens with 5 samples.

Results

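The HOX cluster genes were taken as the protein-coding genes of GENCODE release 44 whose symbol is HOXA, HOXB, HOXC or HOXD followed by digits only, which gave 39 of 20007 protein-coding genes. They were 11 HOXA genes on chromosome 7, 10 HOXB genes on chromosome 17, 9 HOXC genes on chromosome 12 and 9 HOXD genes on chromosome 2. In each cluster, the genes lay side by side within 98.2 to 200.2 kb (hg38). A HOX gene counted as one with a TEAD4 peak if the summit of a peak was inside the gene or within 50 kb of any of its transcription start sites (TSSs). By this rule, 26 of the 39 genes had a peak, and the genes shared 13 distinct peaks among them.

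The peaks came from TEAD4 chromatin immunoprecipitation followed by sequencing (ChIP-seq) in LX-2, a line of human hepatic stellate cells and a model of the collagen-producing myofibroblasts of the scarring liver. The cells were grown with 5% serum and given only the solvent DMSO, for a time the labels do not state. There were 3 biological replicates of the ChIP and 2 input samples, and the authors made a single list of 21113 peaks from replicates 1 and 3 after leaving out replicate 2 as too little concordant. The list holds no value per replicate and no read counts, so the depth is unknown, the spread between replicates could not be given and no test was made; the intervals below cover counting error only, over genes or peaks that are not independent of each other. LX-2 is 1 cell line, and the peak list holds no RNA measurement by which its cell type markers, or the expression of any HOX gene, could be checked.

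HOX genes encode homeodomain transcription factors that give cells their position along the head-to-tail axis of the embryo. Their order on the chromosome follows the order in which they are used along that axis, so that low-numbered (anterior) genes sit at one end of a cluster and high-numbered (posterior) genes at the other, and adult fibroblasts keep region-specific HOX patterns. TEAD4 is a DNA-binding protein of the Hippo pathway that recruits the coactivators YAP1 and TAZ, and its usual site reads ACATTCC.

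The DNA under the HOX peaks is shown first, to set the TEAD and AP-1 sites found there beside the peaks that lack them. All coordinates are hg38, and windows are centred on the motif or, where so stated, on the summit. The site ACATTCC (on either strand within 100 bp of the summit) was found in 2 of the 13 HOX peaks, against 23.0% of the whole list. Both were at HOXB. The site is in capitals in the following lines, which print the strand that carries it.
HOXB peak 2, chr17:48483961-48483989, plus strand: tgaatcaaaagACATTCCtaagtgagagt
HOXB peak 7, chr17:48571093-48571121, minus strand: tttgaacgtggACATTCCcaggatccgaa
In HOXB peak 7, in an intron of HOXB3, the centre of the motif was 27 bp from the summit. In HOXB peak 2, outside the cluster, it was 83 bp away.

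The related sequence GCATTCC shares its last 6 bases with the usual site. It was found in 4 other HOX peaks and is in capitals below. This form was looked for after the sequences had been seen.
HOXC peak 2, chr12:53995704-53995732, minus strand: ctgccgggcctGCATTCCcgccggcgccc
HOXC peak 4, chr12:54016732-54016760, plus strand: acaaatgcatcGCATTCCcggttgtttgc
HOXB peak 4, chr17:48492636-48492664, minus strand: ccgcggctcccGCATTCCcgcgcgcctct
HOXD peak 1, chr2:176129557-176129585, plus strand: ggctgcgatccGCATTCCcgcggccccgg
The centres of these sites were 2 bp (HOXC peak 2), 25 bp (HOXC peak 4), 20 bp (HOXB peak 4) and 34 bp (HOXD peak 1) from the summits. In all 4 sites the motif was followed directly by CG. The 3 peaks next to a HOX TSS at HOXC9, HOXC4 and HOXD8, described below, carried this form and not the usual site.

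The strongest peak of HOXB, the strongest of HOXC and HOXB peak 3, next to the former, held neither 7-base form within 100 bp of the summit. The windows below run 30 bp to either side of the summit on the plus strand, and the capitals mark ATTCC or its complement GGAAT, which form an overlapping palindrome in HOXB peak 3.
HOXB peak 1, chr17:48483661-48483721: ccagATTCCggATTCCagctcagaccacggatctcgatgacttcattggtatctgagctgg
HOXC peak 1, chr12:53953256-53953316: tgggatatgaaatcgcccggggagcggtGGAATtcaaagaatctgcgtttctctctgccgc
HOXB peak 3, chr17:48486705-48486765: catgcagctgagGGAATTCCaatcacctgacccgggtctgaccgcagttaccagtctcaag
HOXB peak 1, the strongest of the 13, carried ATTCC in 2 copies side by side. The palindrome of HOXB peak 3 was also found within 30 bp of the summit of HOXB peak 6, which held neither 7-base form. HOXB peak 5 held neither form, and no ATTCC within 30 bp of its summit.

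A site of AP-1, the FOS and JUN family of transcription factors, reads TGACTCA or TGAGTCA and was present in 1 HOX peak, in an intron of HOXC6, with its centre 20 bp from the summit.
HOXC peak 3, chr12:54013827-54013855, plus strand: tacaagtcttcTGACTCAgtcaggagagg

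Counted over all 13 HOX peaks, the TEAD site ACATTCC was present in 2 (15.4%, Wilson 95% interval 4.33 to 42.2%), against 23.0% of the 21113 peaks of the list. The AP-1 site was present in 1 (7.69%, interval 1.37 to 33.3%), against 25.4% of the list. Both intervals include the share of the whole list, so a lower share at HOX genes could not be shown with 13 peaks. GCATTCC was present in 4 (30.8%, interval 12.7 to 57.6%), against 18.1% of the list. The 6 bases CATTCC, which cover both forms, were present in 6 (46.2%, interval 23.2 to 70.9%), against 46.8% of the list. ATTCC occurred within 30 bp of the summit in 10 (76.9%, interval 49.7 to 91.8%), against 55.5% of the list. This last interval also includes the share of the whole list, so a higher share at HOX genes could not be shown. The 5 bases and the window of 30 bp were those used above to mark peaks that held neither 7-base form. Their share therefore describes the 13 peaks and is not an independent test. A match is a run of letters in the reference genome and does not show that TEAD4 contacts it.

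Of the 39 HOX genes, 26 (66.7%, Wilson 95% interval 51.0 to 79.4%) had a TEAD4 peak by the 50 kb rule, against 56.2% of all protein-coding genes (11245 genes). Among other genes with a CpG-rich promoter, a feature that 27 of the 39 HOX genes share, the share was 59.8%. The HOX share was thus near the background, and its interval included it. Counted over genes, however, the clusters were not alike. No HOXA gene had a peak (0 of 11, interval up to 25.9%), whereas 9 of 10 HOXB genes (59.6 to 98.2%), 9 of 9 HOXC genes (70.1 to 100%) and 8 of 9 HOXD genes (56.5 to 98.0%) had one. Without HOXA, 26 of 28 HOX genes had a peak (92.9%, interval 77.4 to 98.0%), and the 2 exceptions, HOXB13 and HOXD1, are the outermost genes of their clusters. Neighbouring HOX genes count the same peaks (63 pairs of a gene and a peak came from 13 peaks), so these intervals are narrower than the data warrant. The 8 HOXD genes all counted the same peak, so in distinct peaks HOXA had 0 and HOXD 1.

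**Figure D1:**
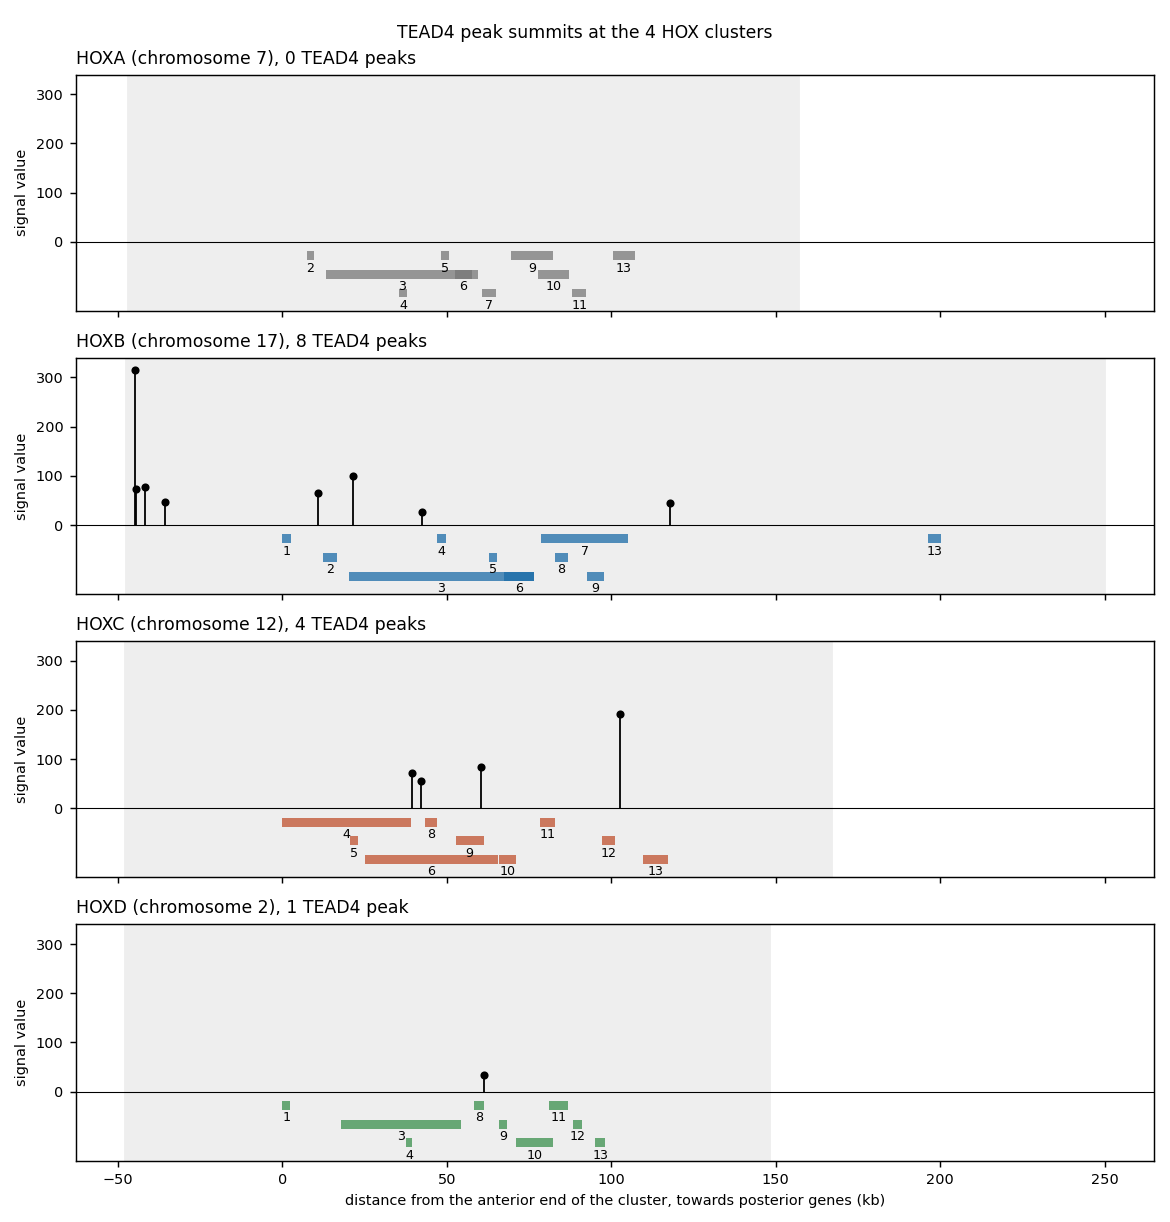
TEAD4 peak summits at each HOX cluster. The horizontal axis gives the distance in kb from the anterior end of the cluster, the height of each stem is the signal value of a peak, numbered boxes are 38 of the genes, and grey marks the stretch within 50 kb of a TSS or inside a gene. HOXA holds no summit, HOXB 8 with 4 of them beside HOXB1 outside the cluster, HOXC 4 and HOXD 1.

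Counted as distinct peaks, HOXB had 8 (exact Poisson 95% interval 3.45 to 15.8), HOXC 4 (1.09 to 10.2), HOXD 1 (0.0253 to 5.57) and HOXA 0. The count of 0 at HOXA was bounded by 3 counts, which is lower than the upper end of its exact Poisson interval, 3.69. The stretch of DNA that the rule searches was 297.8 kb at HOXB and 195.9 to 215.0 kb at the others. Per 100 kb of it, HOXB had 2.69 peaks (1.16 to 5.29), HOXC 1.86 (0.507 to 4.763), HOXD 0.510 (0.0129 to 2.84) and HOXA 0 (up to 1.47 by 3 counts, 1.81 by the exact interval). The density over the same stretches of all protein-coding genes was 0.885. Only the HOXB interval lay above that density, and 4 of the HOXB peaks were close together outside the cluster. Between the first and last gene of the cluster, HOXB had 2.00 peaks per 100 kb and HOXC 3.41, so the order of these clusters was reversed. No interval was computed for these densities. The higher density at HOXB was thus shown by the 50 kb rule only. At the density of all protein-coding genes, 1.81 peaks would fall on the HOXA stretch and 1.74 on the HOXD stretch. The limit of 1.47 per 100 kb at HOXA (3 counts over the stretch) is above that density, so a lower density at HOXA was not detectable from this count. The clusters had a like base composition, with 47.0 to 49.1% G and C.

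**Figure D2:**
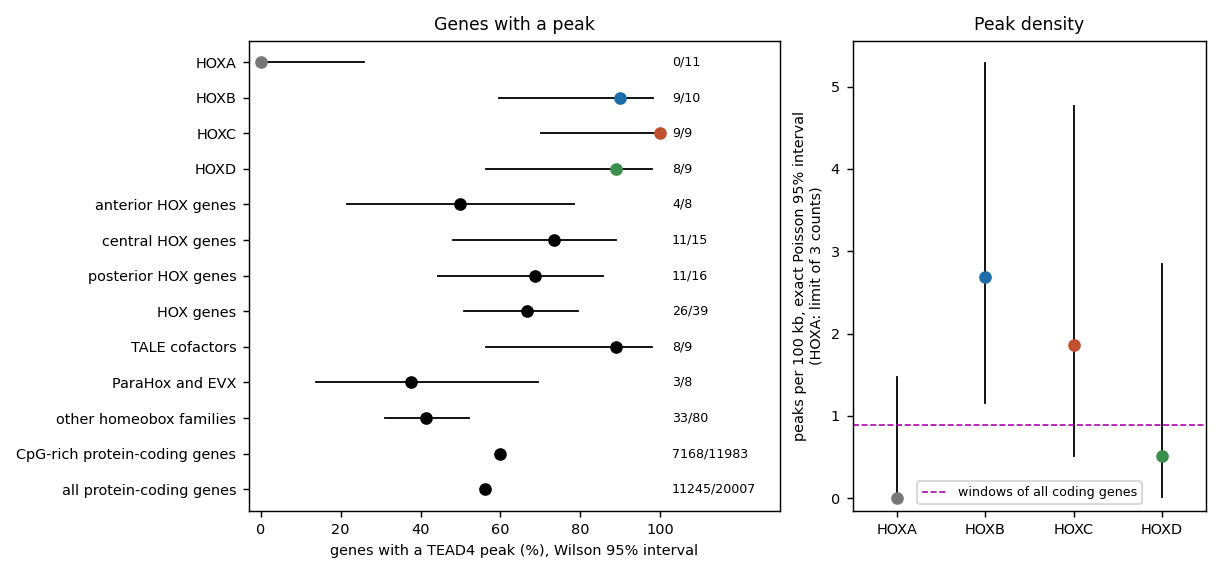
Left, the share of genes with a TEAD4 peak (%, with its Wilson 95% interval and the counts) in each HOX cluster, each class of HOX genes, other homeobox lists and all protein-coding genes. Right, TEAD4 peaks per 100 kb of the searched stretch of each cluster with the exact Poisson 95% interval (for HOXA, the limit of 3 counts), and the density over all coding genes (dashed). HOXA is at 0 in both, and the HOXB interval alone lies above the dashed line.

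Within 2.5 kb of a TSS, 5 of the 39 HOX genes had a summit (12.8%, interval 5.60 to 26.7%), against 16.7% of all protein-coding genes, a share inside that interval. They were HOXC4, HOXC6, HOXC9, HOXC12 and HOXD8. The peak nearest to a HOX TSS was that of HOXD8, at 89 bp, followed by HOXC4 at 160 bp, HOXC9 at 207 bp, HOXC6 at 772 bp and HOXC12 at 1617 bp. HOXC6, whose alternative TSSs are spread along the cluster, had 3 summits within this distance. Of the 107 annotated TSSs of the HOX genes, 10 had a summit within 2.5 kb and 70 within 50 kb. The median distance from a HOX gene's TSSs to the nearest summit was 21.9 kb, against 39.4 kb for all protein-coding genes.

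**Figure D3:**
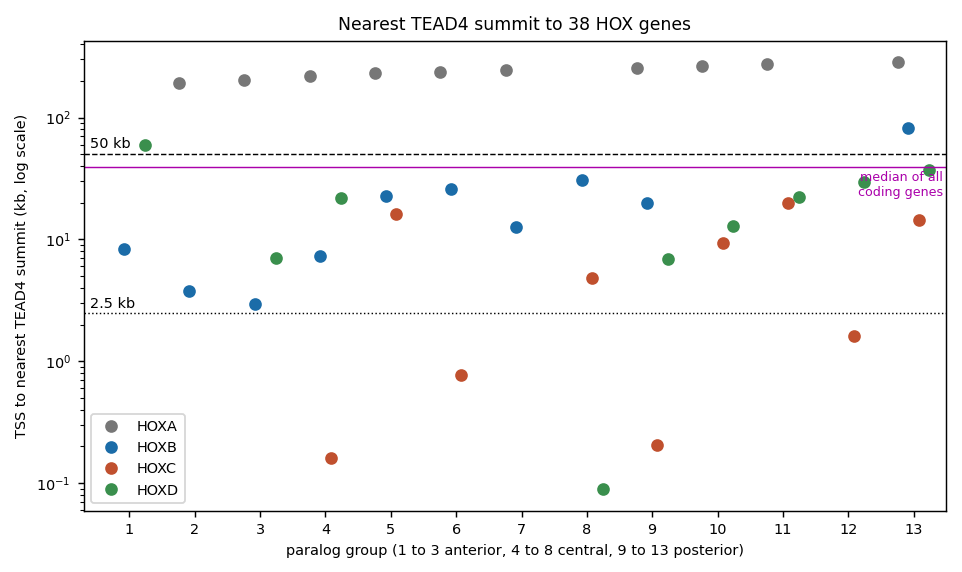
Distance from the TSSs of 38 HOX genes to the nearest TEAD4 summit (kb, log scale) by paralog group, coloured by cluster. Lines mark 2.5 kb, 50 kb and the median of all coding genes. The 10 HOXA genes plotted lie at the top, between 192.3 and 285.2 kb, and the points below 2.5 kb are 4 HOXC genes and HOXD8.

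The HOXA cluster on chromosome 7 includes HOXA2, which acts in hindbrain patterning, and HOXA13, which acts in limb and genital development. The cluster lay in a stretch of 767.8 kb without a TEAD4 summit, from an intronic peak of SKAP2 (summit at 26910421, signal value 250.4) to an intergenic peak (summit at 27678251, signal value 67.6). The nearest summit was 192.3 kb from HOXA2 and 285.2 kb from HOXA13, with the genes between them in their order along the cluster, since the nearest peak was that in SKAP2 for each of them. HOXA5 was 232.4 kb, HOXA9 255.0 kb and HOXA10 262.5 kb from it. Of all protein-coding genes, 14.5% were at least as far from a summit as HOXA2. Of the 21089 intervals between neighbouring summits on the same chromosome, 3.02% were longer than this one, and the median was 37.3 kb. The interval held 14 protein-coding genes, namely the 11 HOXA genes, the homeobox gene EVX1, HIBADH and a gene listed only by its identifier. As many genes without a summit between them were not particular to HOXA, as 125 intervals held 14 or more. In the 1 Mb beyond each end of the stretch searched by the 50 kb rule, there were 5 peaks on one side and 7 on the other. The counts were 16 and 6 at HOXB, 23 and 15 at HOXC and 1 and 1 at HOXD. The 4 HOXB peaks outside the cluster lay inside the searched stretch and are not among the 16.

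The HOXB cluster (chr17:48528526-48728750) had the most peaks by the 50 kb rule, 8 against 4 at HOXC. Between the first and last gene, both clusters had 4, and within 10 kb of a TSS HOXC had 4 and HOXB 3. Outside the cluster, on the HOXB1 side, 4 peaks lay 38240 to 47219 bp from the TSS of HOXB1, a gene of hindbrain segment identity, in intergenic DNA. HOXB peak 1 (chr17:48483504-48483845), with a signal value of 316.2, was the strongest HOX peak and ranked 640 of 21113 in the list. It overlapped HOXB peak 2 (chr17:48483670-48484113, signal value 72.8). HOXB peak 3 (chr17:48486661-48486794) had 78.2 and HOXB peak 4 (chr17:48492448-48492891) had 47.6. These 4 peaks counted for HOXB1 alone and lay just inside the 50 kb limit.

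Between HOXB1 and HOXB2, HOXB peak 5 (chr17:48539188-48539631, signal value 65.0) was intergenic, 3736 bp downstream of the nearest TSS of HOXB2. Inside HOXB3, HOXB peak 6 (chr17:48549990-48550146, signal value 98.9) fell on an untranslated part of an exon, 439 bp from a TSS of the antisense RNA gene HOXB-AS3. HOXB peak 7 (chr17:48570858-48571301) fell on an intron of HOXB3, 2943 bp from a HOXB3 TSS. With a signal value of 27.2, HOXB peak 7 was the weakest HOX peak, at percentile 5.58 of the list. HOXB peak 8 (chr17:48645997-48646440, signal value 45.0) lay beyond HOXB9, in an intron of the long non-coding RNA gene LINC03057, 704 bp from a TSS of LINC02086 and 12.6 kb from a TSS of HOXB7. No HOXB gene had a summit within 2.5 kb of a TSS. HOXB3 was nearest to one (2943 bp), followed by HOXB2 (3736 bp), HOXB4 (7270 bp), a gene known for its role in blood stem cells, and HOXB1 (8399 bp). HOXB7, HOXB9, HOXB5, HOXB6 and HOXB8 were 12.6 to 30.9 kb from the nearest summit.

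The number of peaks per gene was highest at HOXB1 and lowest at HOXB13, without a steady order between them. From the anterior to the posterior end, HOXB1 had 7 peaks, HOXB2 3, HOXB3 4, HOXB4 3, HOXB5 2, HOXB6 3, HOXB7 and HOXB8 2 each, HOXB9 1 and HOXB13 0. The nearest summit to HOXB13, a gene known for its role in the prostate, was 82.5 kb away. HOXB13 lies apart from the other HOXB genes and was, with HOXD1, one of the 2 genes outside HOXA without a peak. If the 4 peaks outside the cluster were not counted, HOXB1 would have 3 peaks, as HOXB2 has, and HOXB3 the most.

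The HOXC cluster (chr12:53938831-54056030) was the only one in which each gene had a peak, and all 4 of its peaks lay between its first and last gene. HOXC peak 1 (chr12:53953147-53953417) was intergenic, 1617 bp upstream of the TSS of HOXC12. Its signal value of 192.7, at percentile 90.1 of the list, was the highest of the cluster, and it was the only peak of HOXC13, a gene known for its role in hair and nails. HOXC peak 2 (chr12:53995494-53995937, signal value 84.6) lay in an intron of HOXC9, 207 bp downstream of an internal TSS of that gene, and 183 bp from a TSS of the antisense RNA gene HOXC-AS2, in an exon of that gene. HOXC peak 3 (chr12:54013599-54014042, signal value 56.3), in an intron of HOXC6, was 2076 bp upstream of another HOXC6 TSS. HOXC peak 4 (chr12:54016549-54016992, signal value 72.2) was 160 bp upstream of a HOXC4 TSS and fell on an untranslated part of an exon of HOXC6. The summits of HOXC peaks 3 and 4 were 2950 bp apart.

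The remaining HOXC genes were reached over a distance. The nearest summit was 4836 bp from HOXC8, 9286 bp from HOXC10, 14.5 kb from HOXC13, 16.3 kb from HOXC5 and 19.8 kb from HOXC11. HOXC6, HOXC9, HOXC10 and HOXC11 each counted all 4 peaks. HOXC4, HOXC5 and HOXC8 counted 3, HOXC12 2 and HOXC13 1.

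The HOXD cluster (chr2:176092721-176190907), known for the patterning of the limb and digits, had a single TEAD4 peak. HOXD peak 1 (chr2:176129383-176129826) lay 89 bp upstream of a HOXD8 TSS and in an intron of the antisense RNA gene HOXD-AS2. It was the only peak counted for each of 8 HOXD genes, from HOXD9 at 6886 bp and HOXD3 at 7007 bp to HOXD13 at 36.9 kb, with HOXD10 (12.8 kb), HOXD4 (21.9 kb), HOXD11 (22.3 kb) and HOXD12 (29.8 kb) between them. HOXD1, at the anterior end, was 59.1 kb away. The peak was among the weaker ones of the list, with a signal value of 33.7 (percentile 8.83) and a score of 870, where 76.1% of all peaks had the highest score of 1000. The score is a scaled irreproducible discovery rate (IDR), a measure of how well the rank of a peak repeats between replicates. Kept to peaks of the highest score, or to peaks above the median signal value, the list held no peak for any HOXD gene. The next summit was 273.7 kb away, and 2.62% of all peaks were at least as far from their neighbours.

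**Figure D4:**
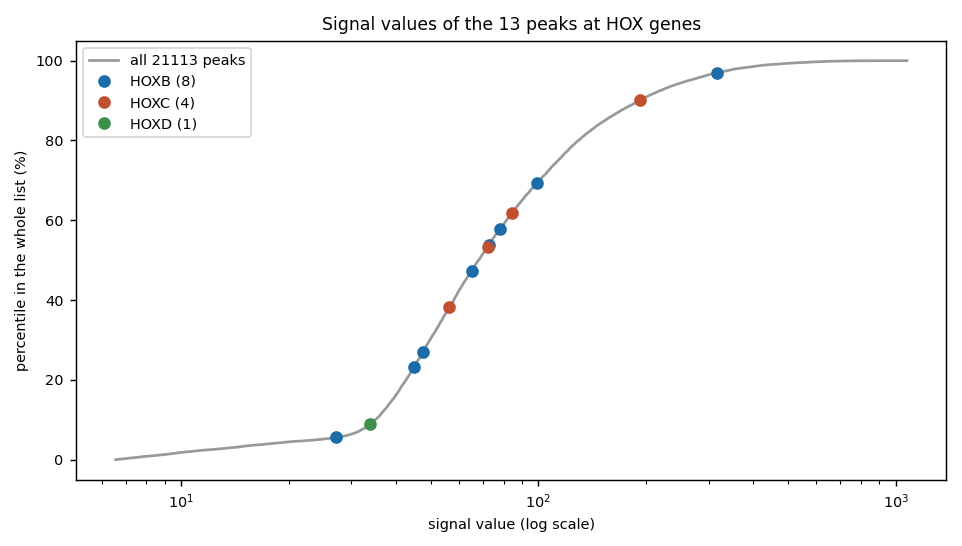
Signal value (log scale) of each of the 13 HOX peaks against its percentile among all 21113 peaks (grey line). The points run from 27.2 in HOXB to 316.2 in HOXB, with the HOXD peak at 33.7 and the 4 HOXC peaks between 56.3 and 192.7.

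As a set, the 13 HOX peaks had a median signal value of 72.2, from 27.2 to 316.2, against a median of 68.1 in the whole list, from 6.57 to 1074.4. Of them, 7 were above the list's median, and 11 (84.6%) had the highest score. The 2 with a lower score were HOXB peak 7, at 857, and HOXD peak 1. The peaks also differed in base composition. The DNA within 100 bp of the summit was 73.1% G and C in HOXD peak 1 and 72.6% in HOXB peak 4, but 43.8% in HOXB peak 7 and 44.8% in HOXC peak 4. The median over the 13 peaks was 54.2%, against 44.8% in the list. The searched stretches of the clusters were themselves 47.0 to 49.1% G and C, against 40.9% of the genome without gaps. Whether the peaks differ from the list beyond this difference of their loci was not tested. Of the 13 peaks, 7 had their summit within 2.5 kb of the start of some protein-coding or long non-coding RNA gene (53.8%, interval 29.1 to 76.8%), against 24.4% of the list. The 13 peaks were chosen for lying in a HOX gene or within 50 kb of its TSSs. Only 16031 of the 21113 listed peaks lay in such a stretch of any protein-coding gene. The rule thus favours a higher share at HOX genes, and no excess can be read from it.

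Anterior and posterior genes were compared across the clusters, with paralog groups 1 to 3 taken as anterior, 4 to 8 as central and 9 to 13 as posterior. A peak was counted for 4 of 8 anterior genes (50%, interval 21.5 to 78.5%), 11 of 15 central genes (73.3%, 48.0 to 89.1%) and 11 of 16 posterior genes (68.8%, 44.4 to 85.8%). The intervals overlapped widely, so no difference between the classes could be shown. Without the HOXA genes, the counts were 4 of 5 anterior (HOXB1, HOXB2, HOXB3 and HOXD3), 11 of 11 central and 11 of 12 posterior genes. Within 2.5 kb of a TSS, there was a summit for 0 of 8 anterior genes (interval up to 32.4%), 3 of 15 central and 2 of 16 posterior genes.

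Within a single cluster, the counts by class were small. In HOXB, 3 of 3 anterior, 5 of 5 central and 1 of 2 posterior genes had a peak. In HOXD, 1 of 2 anterior, 2 of 2 central and 5 of 5 posterior genes had one. In HOXC, which has no anterior genes, 4 of 4 central and 5 of 5 posterior genes had one, and in HOXA none of any class. The anterior class therefore holds no HOXC gene. Summed over clusters, 9 distinct peaks were counted for anterior genes, 9 for central and 6 for posterior genes, with peaks shared between classes counted in each.

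Other homeobox genes were set beside the HOX genes by the same 50 kb rule. Of all protein-coding genes, 56.2% had a peak by this rule and 16.7% had a summit within 2.5 kb of a TSS. The TALE proteins of the PBX, MEIS and PKNOX families bind DNA together with HOX proteins, and 8 of their 9 genes had a peak (88.9%, interval 56.5 to 98.0%). Within 2.5 kb of a TSS the count was 5 of 9 (55.6%, interval 26.7 to 81.1%), against 5 of 39 HOX genes. PBX3 had 7 peaks with a highest signal value of 165.4, PKNOX2 6 (86.9), MEIS2 3 (66.7) and MEIS1 1 (42.8). The nearest summit was 234 bp from a TSS of MEIS2 and 799 bp from MEIS1, whereas MEIS3 had none within 64.4 kb. The interval of the TALE genes for 2.5 kb touched that of the HOX genes (26.7% in both).

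Of the ParaHox genes, the sister group of the HOX genes, and the EVX genes that flank HOXA and HOXD, 3 of 8 had a peak (37.5%, interval 13.7 to 69.4%). For EVX2 it was HOXD peak 1, 45.6 kb away. EVX1, beside HOXA, was 332.3 kb from the nearest summit. Of 80 genes of other homeobox families, 33 had a peak (41.2%, interval 31.1 to 52.2%), and 6 had a summit within 2.5 kb (7.50%, interval 3.48 to 15.4%). Both intervals of these 80 genes lay below the shares of all protein-coding genes (56.2% and 16.7%). They overlapped those of the HOX genes, by the 50 kb rule only between 51.0 and 52.2%.

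The HOX clusters also hold microRNA genes, at varied distances from a peak. From the hairpins of the RefSeq table (GRCh38), the nearest TEAD4 summit was 3.87 kb away for MIR196A2 in HOXC, 8.76 kb for MIR10A in HOXB, 13.7 kb for MIR196A1 in HOXB, 17.2 kb for MIR615 in HOXC, 20.7 kb for MIR10B in HOXD, 59.2 kb for MIR7704 in HOXD, 78.2 kb for MIR3185 in HOXB and 259.1 kb for MIR196B in HOXA. At HOX promoters themselves, in the RefSeq windows from 250 bases before to 50 after a start (27 windows of 20 HOX genes), ACATTCC was present in 1, that of HOXD10 (3.70%, against 3.46% of all promoters), and the AP-1 site in 0 (against 4.95%).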

How the data were processed

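The authors mapped TEAD4 ChIP-seq reads of LX-2 cells to hg38 with Chromap and ran the ENCODE IDR pipeline on replicates 1 and 3. The deposited list of 21113 peaks gives, as the authors computed them, a score (scaled IDR), a signal value, a −log10 q-value (highest 4.76) and the summit as an offset from the peak start. These meanings were read from the layout; the peak caller was not given in the sources used here. Signal values served only to describe, rank and filter peaks.

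Summits were joined to GENCODE release 44 genes, and motifs were searched in hg38 on both strands. Promoters were CpG-rich if CpG within 500 bp of the TSS occurred at more than 0.6 times the expected rate. Shares carry Wilson and counts exact Poisson 95% intervals, and a count of 0 was bounded by 3 counts. Neither covers variation between replicates. Values were given for members near a TSS, with the most or strongest peaks, or without a peak, and for listed homeobox genes. The values of 1 HOXA gene and 1 TALE gene are not reported here, and they enter counts only. Members, lists and alternatives were chosen with earlier results of these data known. Assignment, intervals and motif search were tested on simulated data. Python 3.11.15, numpy 2.4.6, pandas 2.3.3, scipy 1.17.1 and matplotlib 3.10.9 were used.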

Additional observations from a re-analysis of the deposited data

How the results depend on the processing

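Of 73 alternatives to 11 results, 59 left the value within 1.5 times, or within its interval, and the 0 peaks at HOXA could change under none of its 8, as no summit lay within 100 kb of a HOXA TSS. Within 10 kb of a TSS, 13 HOX genes had a peak (34.0% of all coding genes did), with 5 central and 4 posterior genes and 3 HOXB peaks, fewer than the 4 HOXC peaks. Within 100 kb, 28 of the 39 HOX genes had a peak (72.0% of all coding genes did), and HOXC had 8 peaks. Kept to peaks above the median signal value, 15 HOX genes had a peak, 7 central and 5 posterior, with 4 HOXB peaks and 0 HOXD peaks. Kept to the highest score, 6 posterior genes and 0 HOXD peaks were left. The share of all coding genes was not computed for either filter, so the lower counts cannot be read as particular to HOX genes. Taking groups 1 to 8 as anterior gave 15 genes, since more genes were counted. The 6-base core of the TEAD site, added after seeing the data, was in 46.2% of HOX peaks. These changes follow from fewer or more peaks, genes or bases being admitted. No paired analysis was possible because replicates 1 and 3 share one list, which also kept either from being left out. Unknown depth limits every absence reported.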
